A study of Caenorhabditis elegans with 4 samples.

Results

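The transcripts of 10 glycolysis genes were followed in whole Caenorhabditis elegans fed Bacillus subtilis PY79 or Escherichia coli OP50 and collected at day 13 or day 4 of adulthood. The 10 genes were chosen by name out of 17096 genes in the count table. They are the aldolase genes aldo-1 (T05D4.1) and aldo-2 (F01F1.12), the triose phosphate isomerase gene tpi-1 (Y17G7B.7) and the glyceraldehyde-3-phosphate dehydrogenase genes gpd-1 (T09F3.3), gpd-2 (K10B3.8), gpd-3 (K10B3.7) and gpd-4 (F33H1.2). The later steps are covered by the phosphoglycerate kinase gene pgk-1 (T03F1.3), the enolase gene enol-1 (T21B10.2) and the pyruvate kinase gene pyk-1 (F25H5.3). For a gene with several transcript lines in the table, the line with most reads over the 4 libraries was used.

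All worms were of the laboratory wild type strain N2. There were 4 groups with 1 library each, namely PY79 at day 13, PY79 at day 4, OP50 at day 13 and OP50 at day 4. B. subtilis PY79 is a Gram-positive soil bacterium and E. coli OP50 is the usual laboratory food. A synchronized population was kept on its bacterium from the first larval stage and was washed over nylon mesh every other day as adults, starting on day 2. The study's methods state the drug FUDR, which blocks progeny, for its aging transcriptomes in general and do not name it for these worms. Each group was a single biological replicate, so no difference below has a replicate check, and a ratio of 2 libraries compares those libraries and not the conditions.

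Glycolysis splits glucose into pyruvate and yields ATP and NADH without oxygen. Aldolase cuts fructose bisphosphate into triose phosphates, triose phosphate isomerase converts one triose into the other, and the dehydrogenase and the kinases then carry out the oxidation and the steps that make ATP. In C. elegans most of these enzymes also run in reverse when sugar is made from fat, and gpd-2 and gpd-3 are known as the genes of the main dehydrogenase of body wall muscle.

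The libraries differed in depth. The chosen lines held 4469802 reads in the PY79 day 13 library and 4838114 in the PY79 day 4 library, against 28552961 in the OP50 day 13 library and 28650595 in the OP50 day 4 library. Levels are given as CPM, reads out of 1000000 of the library size after scaling by the trimmed mean of M values (TMM), with scaling factors between 0.743 and 1.31. A floor of 3 reads was worth 0.513 and 0.556 CPM in the PY79 libraries at day 13 and day 4, and 0.141 and 0.114 CPM in the OP50 libraries at those days. Genes that reached 10 reads in any library were tested, 9032 in all, and 4741 of them reached 10 reads in every library. All 10 glycolysis genes belonged to the 4741. The label of whole worms was checked with lists of tissue markers, and markers of body wall muscle, pharynx, intestine, germline, epidermis and neurons were all found, although myo-1, pept-1, bli-1 and bli-2 had 0 reads in at least 1 library. In whole animals, fewer cells of a type and less RNA per cell cannot be told apart.

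Together the 10 genes held 3850 reads in the PY79 day 13 library and 3506 in the PY79 day 4 library, which were 0.0861% and 0.0725% of those libraries. They held 31440 reads in the OP50 day 13 library and 33877 in the OP50 day 4 library, or 0.110% and 0.118%. The genes did not contribute alike, and aldo-2 alone took between 77.6% and 83.3% of the reads of the 10 genes in every library. The reads come from the 3' ends of transcripts and were not divided by length, so an order of levels between genes is an order of CPM only.

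**Figure D1:**
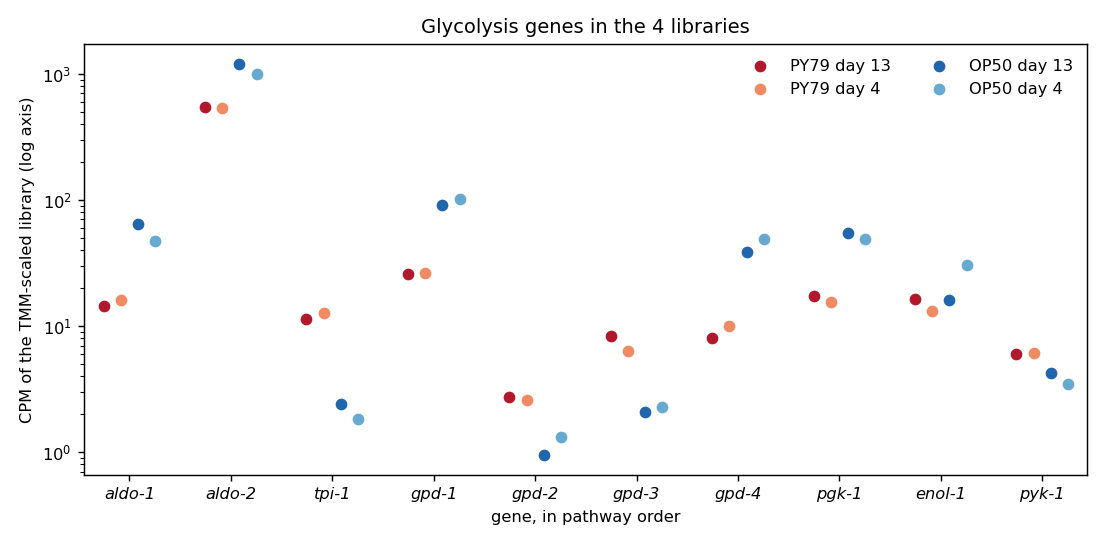
CPM of the TMM-scaled library on a log axis for the 10 glycolysis genes in pathway order, with 1 point for each of the 4 libraries. The PY79 points lie above the OP50 points for tpi-1, gpd-2, gpd-3 and pyk-1, below them for aldo-1, aldo-2, gpd-1, gpd-4 and pgk-1, and beside the OP50 day 13 point for enol-1, while both ages of a diet lie close together except for enol-1 on OP50.

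Aldolase aldo-2 was the most abundant of the 10 by CPM in every library. It had 548 CPM (3206 reads) at day 13 and 541 CPM (2919 reads) at day 4 on PY79, against 1209 CPM (25630 reads) at day 13 and 995 CPM (26297 reads) at day 4 on OP50. Its paralog aldo-1 had 14.5 CPM (85 reads) at day 13 and 16.1 CPM (87 reads) at day 4 on PY79, against 64.3 CPM (1364 reads) at day 13 and 47.7 CPM (1259 reads) at day 4 on OP50. Both aldolase genes were lower in each PY79 library than in each OP50 library, and both were highest in the OP50 day 13 library. The gene F01F1.3 lies on the other strand of aldo-2 in the Ensembl annotation and had between 3 and 10 reads, and since no source used here gives the use of strand in the counting, reads from either gene cannot be told apart.

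Triose phosphate isomerase tpi-1 stood on the opposite side. It had 11.3 CPM (66 reads) at day 13 and 12.6 CPM (68 reads) at day 4 on PY79, against 2.41 CPM (51 reads) at day 13 and 1.82 CPM (48 reads) at day 4 on OP50. The PY79 libraries thus held more tpi-1 reads than the far deeper OP50 libraries even before any scaling.

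The 4 dehydrogenase genes fell into pairs of near-identical copies. On chromosome II, gpd-1 had 25.6 CPM (150 reads) at day 13 and 26.5 CPM (143 reads) at day 4 on PY79, against 91.0 CPM (1930 reads) at day 13 and 102 CPM (2686 reads) at day 4 on OP50. Its copy gpd-4, also on chromosome II, had 8.04 CPM (47 reads) at day 13 and 10.002 CPM (54 reads) at day 4 on PY79, against 38.3 CPM (812 reads) at day 13 and 49.1 CPM (1298 reads) at day 4 on OP50. Both were lower in each PY79 library than in each OP50 library, and gpd-1 had more reads than gpd-4 by 3.19 and 2.65 times in the PY79 libraries at day 13 and day 4, against 2.38 and 2.07 times in the OP50 libraries at those days.

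On chromosome X, gpd-2 had 2.74 CPM (16 reads) at day 13 and 2.59 CPM (14 reads) at day 4 on PY79, against 0.943 CPM (20 reads) at day 13 and 1.32 CPM (35 reads) at day 4 on OP50. Its neighbour and copy gpd-3 had 8.38 CPM (49 reads) at day 13 and 6.30 CPM (34 reads) at day 4 on PY79, against 2.07 CPM (44 reads) at day 13 and 2.27 CPM (60 reads) at day 4 on OP50. Both were higher in each PY79 library than in each OP50 library, the reverse of gpd-1 and gpd-4. The study normalized to uniquely mapped reads, and reads that 2 copies share may be missing or split, so the levels of all 4 gpd genes are uncertain. The gene mai-1 overlaps gpd-2 on the same strand and had between 19 and 79 reads.

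Summing each pair keeps the direction. For gpd-2 and gpd-3 together there were 65 reads at day 13 and 48 at day 4 on PY79, against 64 at day 13 and 95 at day 4 on OP50, and the scaled level was 3.68-fold (95% interval 2.57 to 5.28) higher on PY79 at day 13 and 2.47-fold (1.71 to 3.53) higher at day 4. For gpd-1 and gpd-4 together there were 197 reads at each day on PY79, against 2742 at day 13 and 3984 at day 4 on OP50, and the scaled level was 3.84-fold (3.32 to 4.46) lower on PY79 at day 13 and 4.13-fold (3.58 to 4.79) lower at day 4. By the chosen lines, the chromosome X pair was therefore higher and the chromosome II pair lower on PY79 at both days, however counted reads were divided within a pair. Reads left out because they fit both copies, if any, are not in these sums. Here and below, intervals are exact Clopper-Pearson intervals on the split of reads between 2 libraries, and they cover counting error only, since reads counted with no molecular identifier may be copies of 1 molecule.

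Phosphoglycerate kinase pgk-1, which makes the first ATP of the pathway's second stage, had 17.3 CPM (101 reads) at day 13 and 15.4 CPM (83 reads) at day 4 on PY79, against 54.8 CPM (1161 reads) at day 13 and 48.9 CPM (1292 reads) at day 4 on OP50. Its PY79 levels were below its OP50 levels at both days. Enolase enol-1, which makes phosphoenolpyruvate, had 16.2 CPM (95 reads) at day 13 and 13.2 CPM (71 reads) at day 4 on PY79, against 15.9 CPM (338 reads) at day 13 and 30.7 CPM (810 reads) at day 4 on OP50. By the chosen line, the OP50 day 4 library stood apart for enol-1, above the other 3. With the lines of a gene summed, however, the log2 ratio of PY79 to OP50 at day 13 was -1.43, where the chosen line gave 0.03. The enol-1 lines other than the chosen one held near-identical counts, 219 or 220 reads each at day 13 and 704 each at day 4 on OP50. The sum may thus count the same reads more than once, which was not tested. Pyruvate kinase pyk-1, which ends the pathway, had 5.98 CPM (35 reads) at day 13 and 6.11 CPM (33 reads) at day 4 on PY79, against 4.24 CPM (90 reads) at day 13 and 3.48 CPM (92 reads) at day 4 on OP50. By the chosen line, the PY79 levels of pyk-1 were slightly above its OP50 levels, with log2 ratios of 0.49 at day 13 and 0.80 at day 4. With the lines of a gene summed these were 0.37 and -0.0075, with the same limit of a sum. A small nucleolar RNA gene, F25H5.9, overlaps pyk-1 on the same strand.

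The first comparison asked which of these transcripts differed with age on each diet. None of the 10 genes differed at least 2-fold between day 13 and day 4 with an interval excluding 1, on either diet. That rule was met by 6.48% of all genes tested in the higher direction and 7.97% in the lower direction on PY79, and by 14.6% and 18.9% in those directions on OP50. On PY79 the ratio of day 13 to day 4 lay between 0.803 (0.532 to 1.21) for gpd-4 and 1.33 (0.842 to 2.12) for gpd-3, and the intervals of all 10 genes held 1. The narrowest was that of aldo-2, at 1.01 (0.964 to 1.07), whereas that of gpd-2, with 16 and 14 reads, ran between 0.482 and 2.33 and could not show a 2-fold difference at this depth.

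On OP50, with more reads, 6 of the intervals excluded 1. Enolase enol-1 was 1.92-fold (1.69 to 2.19) lower at day 13, just short of 2-fold. The levels of gpd-4 and gpd-1 were 1.28-fold (1.17 to 1.40) and 1.12-fold (1.05 to 1.18) lower at day 13. Above 1 were the ratios of aldo-1, at 1.35 (1.25 to 1.46), aldo-2, at 1.21 (1.19 to 1.24), and pgk-1, at 1.12 (1.03 to 1.21). With TMM scaling the steps did not move as a block between the OP50 libraries. Aldolase and phosphoglycerate kinase were higher and enolase and the chromosome II dehydrogenases lower at day 13. With total-read scaling the log2 ratios of aldo-2 and pgk-1 turned to -0.03 and -0.15, and that of aldo-1 was 0.12. The median log2 ratio of the 10 genes was -0.0049 on PY79 and 0.02 on OP50, beside -0.10 and 0.02 over all genes tested.

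**Figure D2:**
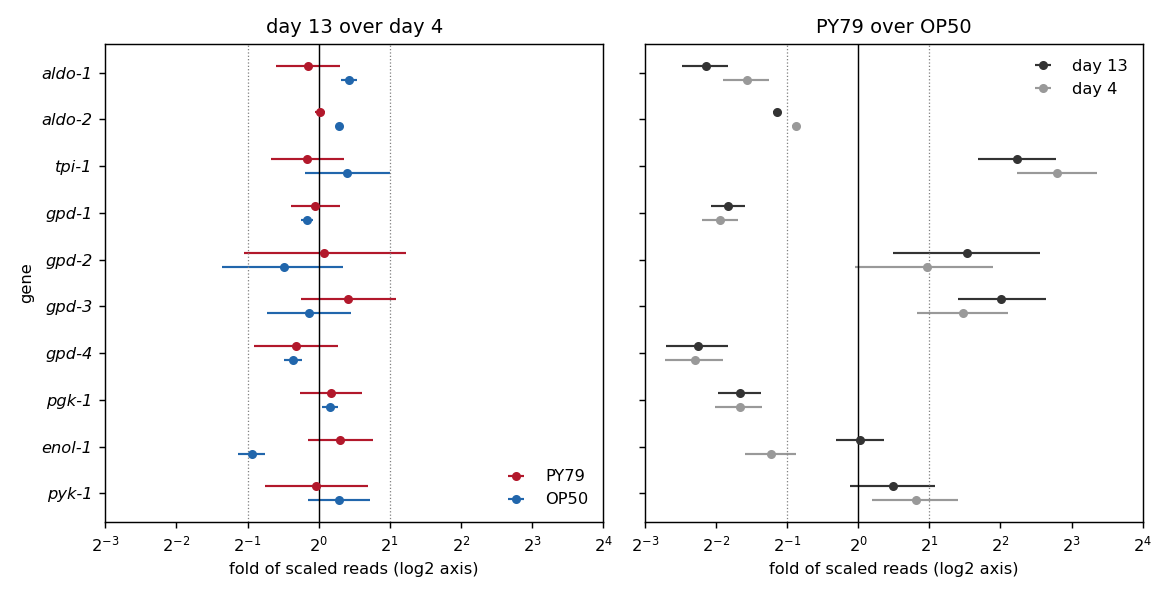
Fold of scaled reads on a log2 axis with exact 95% intervals for the 10 genes, day 13 over day 4 on each diet at left and PY79 over OP50 at each day at right, with dotted lines at 2-fold. All age ratios lie inside the dotted lines, while 8 diet ratios at day 13 and 7 at day 4 lie outside with intervals excluding 1.

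The age contrast was also fitted across all genes with edgeR's quasi-likelihood test with diet and day as additive terms, a model whose only spread is the departure from additivity (1 residual degree of freedom). Of the 10 genes 0 rose and 0 fell with age, beside 3.52% and 4.05% of all genes tested, and the edgeR Benjamini-Hochberg adjusted p lay between 0.938 and 0.980. No member had an unadjusted p under 0.05 in that fit, and DESeq2 called 0 as well. The signs of several small age ratios turn with the scaling. With total-read scaling the median log2 ratio of all genes moved by 0.15 on PY79 and by -0.30 on OP50, and the sign changed for aldo-1, tpi-1, gpd-1 and pyk-1 on PY79 and for aldo-2, pgk-1 and pyk-1 on OP50.

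The age ratio of enol-1 was higher on PY79 than on OP50 by 1.25 on the log2 scale (Wald 95% interval of the counting error 0.77 to 1.73). For aldo-1 the difference was -0.58 (-1.03 to -0.14) and for aldo-2 it was -0.26 (-0.34 to -0.18). For the other 7 genes the interval held 0. These differences rest on the scaling, except that of enol-1, which lay above 0 in every scaling tried. Only the scaling was varied there, not the transcript line. The enol-1 line with fewest reads held 6 and 7 reads on PY79, against 219 and 704 on OP50, at day 13 and day 4. The chosen line's reads beyond it had age ratios of 1.28 (0.921 to 1.80) on PY79 and 1.40 (1.07 to 1.83) on OP50. These intervals hold only if the chosen line has every read of that line, which was not tested. With total-read scaling the difference of aldo-2 turned to 0.28 (0.21 to 0.36), that of aldo-1 was -0.04 (-0.48 to 0.41), and the intervals of 6 genes (aldo-2, gpd-1, gpd-3, gpd-4, pgk-1 and enol-1) lay above 0. With 1 library in each group these differences between diets could not be tested against library variation.

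Markers of body wall muscle, a tissue rich in glycolytic enzymes, moved with age in the same libraries. Over all genes tested, 4.05% fell and 3.52% rose with age in the edgeR fit with TMM scaling, which the marker calls also use. With total-read scaling 1 of the 9032 genes fell and 0 rose with age, so the marker calls rest on the scaling. Of 12 markers 6 fell with age and 0 rose in the edgeR fit (unc-54, mlc-2, unc-27, pat-10, tnt-2 and unc-87), and the summed level of all 12 was 169 CPM at day 13 and 412 CPM at day 4 on PY79, against 302 CPM at day 13 and 1405 CPM at day 4 on OP50. None of the 12 was at 0 in any library. None of the 10 glycolysis genes was called with age. The OP50 day 4 library, which had the most marker RNA, was also the library highest in enol-1, gpd-1 and gpd-4. The other genes peaked elsewhere, aldo-1, aldo-2 and pgk-1 in the OP50 day 13 library and tpi-1, gpd-2, gpd-3 and pyk-1 in a PY79 library. The part of muscle RNA in the glycolysis values was not tested.

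The second comparison asked which transcripts differed between the diets. At day 13, 3 of the 10 genes were at least 2-fold higher on PY79 with an interval excluding 1, beside 22.6% of all genes tested, and 5 were at least 2-fold lower, beside 22.8%. With the lines of a gene summed, 6 were lower at day 13. The gene added was enol-1, whose sum may count the same reads more than once. At day 4, 2 were higher, beside 25.4%, and 5 lower, beside 24.3%. The genes called lower were mostly the same at both days: aldo-1, gpd-1, gpd-4 and pgk-1 at each, aldo-2 at day 13 only and enol-1 at day 4 only. The genes called higher at both days were tpi-1 and gpd-3, and gpd-2 was called at day 13 only.

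The largest excess on PY79 was that of tpi-1, at 4.69-fold (3.21 to 6.90) at day 13 and 6.93-fold (4.72 to 10.3) at day 4. It was followed by gpd-3, at 4.04-fold (2.63 to 6.21) at day 13 and 2.77-fold (1.77 to 4.29) at day 4, and by gpd-2, at 2.90-fold (1.41 to 5.89) at day 13 and 1.96-fold (0.973 to 3.73) at day 4. The intervals of these 3 genes overlap at day 13, so their order is not resolved there. For pyk-1 the ratio was 1.41 (0.926 to 2.10) at day 13 and 1.76 (1.14 to 2.64) at day 4.

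On the other side, gpd-4 was 4.77-fold (3.55 to 6.54) lower on PY79 at day 13 and 4.91-fold (3.74 to 6.57) lower at day 4, and gpd-1 was 3.55-fold (3.00 to 4.22) lower at day 13 and 3.84-fold (3.24 to 4.57) lower at day 4. The aldolase aldo-1 was 4.43-fold (3.55 to 5.58) lower at day 13 and 2.96-fold (2.38 to 3.72) lower at day 4, and pgk-1 was 3.17-fold (2.59 to 3.93) lower at day 13 and 3.18-fold (2.55 to 4.02) lower at day 4. These 4 genes code for the aldolase, dehydrogenase and kinase steps, while the isomerase gene between them in the pathway lay on the opposite side. The dehydrogenase step itself was split, since the ratios of gpd-2 and gpd-3 were also on that opposite side. The abundant aldo-2 differed less, being 2.21-fold (2.13 to 2.29) lower at day 13 and 1.84-fold (1.77 to 1.91) lower at day 4. The ratio of enol-1 was 1.02 (0.803 to 1.28) at day 13, whereas at day 4 it was 2.33-fold (1.83 to 3.02) lower on PY79.

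In the edgeR fit across all genes, 2 of the 10 rose on PY79, beside 14.8% of all genes tested, and 4 fell, beside 17%. Those that rose were tpi-1 (log2 change 2.51, edgeR Benjamini-Hochberg adjusted p = 4.64e-04) and gpd-3 (1.74, adjusted p = 0.0143). Those that fell were gpd-4 (-2.27, adjusted p = 0.00166), gpd-1 (-1.88, adjusted p = 0.00541), aldo-1 (-1.85, adjusted p = 0.00829) and pgk-1 (-1.67, adjusted p = 0.0180). The same fit gave log2 changes of -1.01 for aldo-2 (edgeR Benjamini-Hochberg adjusted p = 0.134), 1.24 for gpd-2 (0.116), 0.65 for pyk-1 (0.399) and -0.60 for enol-1 (0.471), none past the threshold of 0.05.

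These calls rest on the scaling. With total-read scaling, tpi-1 and gpd-3 still rose and 0 of the 10 fell, the edgeR Benjamini-Hochberg adjusted p being 0.0606 for gpd-4, 0.0910 for gpd-1, 0.0968 for aldo-1 and 0.144 for pgk-1. Over all genes, the share of the 2-fold calls at day 13 that were higher on PY79 was 49.7% with TMM and 76.7% with total-read scaling. For day 13 against day 4 that share was 44.8% and 62.3% on PY79, and 43.6% and 27.2% on OP50, with TMM and total-read scaling. Without the 3% most highly expressed genes it was 75.8% for the diets at day 13 and 74.2% at day 4, where TMM gave 51.2%. The direction of the diet ratio was nevertheless kept by all 10 genes at both days under total-read scaling, DESeq2 size factors and scaling without the top 3%, except for enol-1 at day 13 with DESeq2 size factors.

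The diet ratio differed between classes of level over all genes, though not in one direction throughout. Among the 2213 genes under 1 CPM on average, a class with no glycolysis gene, the median log2 ratio of PY79 to OP50 was -0.28 at day 13 and -0.54 at day 4. In the class of 1 to 3 CPM, that of gpd-2, it was 0.46 at day 13 and 0.60 at day 4. Among the 2235 genes with a mean of 3 to 10 CPM, the class of tpi-1, gpd-3 and pyk-1, it was 0.45 at day 13 and 0.42 at day 4. Among the 561 genes with 30 to 100 CPM, the class of aldo-1, gpd-1 and pgk-1, it was -1.39 at day 13 and -1.41 at day 4, and among the 252 genes at or above 300 CPM, the class of aldo-2, it was -1.16 and -0.80 at those days. Read against their own class, aldo-2, pgk-1, gpd-1 and aldo-1 lay within the middle 50% of genes at both days, so their lower level on PY79 was shared by genes of like abundance. Above the middle 50% of their class at day 13 were tpi-1 (log2 ratio 2.20), gpd-3 (1.98) and gpd-2 (1.47), and at day 4 only tpi-1 (2.75). Below it at both days was gpd-4 (-2.24 at day 13 and -2.29 at day 4), whose class of 10 to 30 CPM had medians of -0.29 and -0.59. The part of depth and abundance in the diet ratios was not tested.

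**Figure D3:**
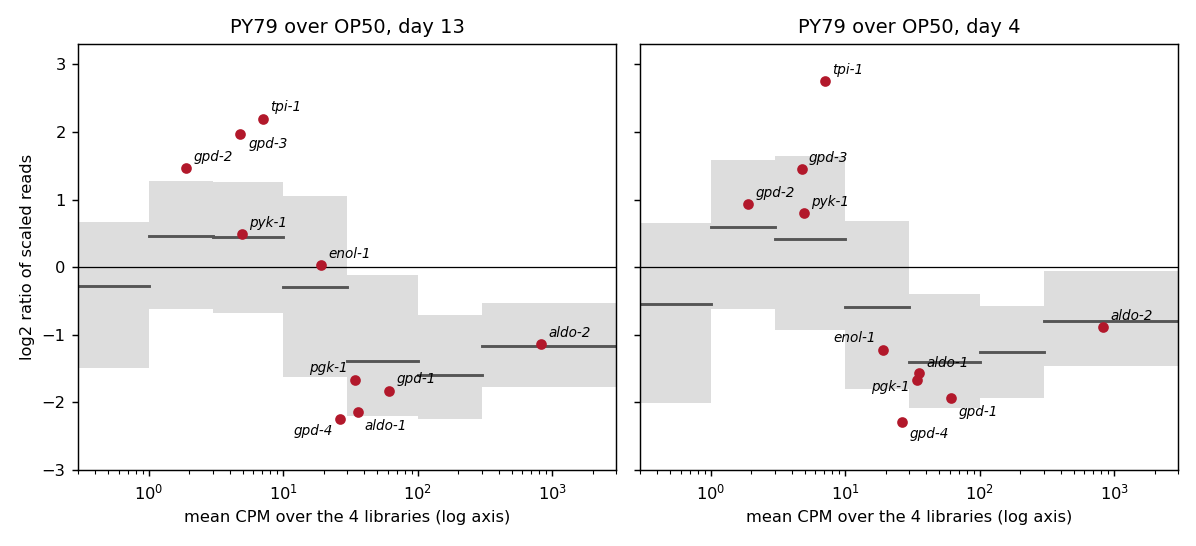
Log2 ratio of scaled reads, PY79 over OP50, against mean CPM over the 4 libraries on a log axis, at day 13 (left) and day 4 (right), with the glycolysis genes as points and, for all genes tested, the median (line) and the middle 50% (grey) of each class of mean CPM. Medians are below 0 under 1 CPM, points and medians are both above 0 between 1 and 10 CPM and both below 0 from 30 CPM upwards, and tpi-1 lies above and gpd-4 below the grey band of its class at both days.

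Of the 10 genes, 8 have more than 1 transcript line in the table, and how reads were divided among these lines differed between the diets. For gpd-1 the least-read line held 34.0% of the reads of the chosen line at day 13 and 14.0% at day 4 on PY79, against 96.3% at day 13 and 98.8% at day 4 on OP50. For its copy gpd-4 the shares were 25.5% at day 13 and 11.1% at day 4 on PY79, against 95.6% at day 13 and 98.5% at day 4 on OP50. For enol-1 they were 6.32% at day 13 and 9.86% at day 4 on PY79, against 64.8% at day 13 and 86.9% at day 4 on OP50. In all 3 genes the least-read line had at least 64.8% as many reads as the chosen line on OP50, and at most 34.0% as many on PY79.

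The other genes were divided otherwise. For aldo-1 the shares were high in all libraries, at 87.1% at day 13 and 93.1% at day 4 on PY79, against 98.9% at day 13 and 99.3% at day 4 on OP50. For gpd-3 they were 36.7% at day 13 and 61.8% at day 4 on PY79, against 52.3% at day 13 and 80% at day 4 on OP50, so here the diets overlapped. For tpi-1 and pyk-1 the least-read line had 0 reads in both PY79 libraries, against 3 and 12 reads for tpi-1 and 2 and 11 reads for pyk-1 on OP50 at day 13 and day 4. For aldo-2 the share was small but higher on PY79, at 1.40% at day 13 and 1.54% at day 4, against 0.27% and 0.30% on OP50. Over the 2144 genes with several lines that were compared, the median share was 26.4% at day 13 and 21.4% at day 4 on PY79, against 50% at day 13 and 71.6% at day 4 on OP50, and both PY79 shares lay below both OP50 shares in 1313 of them (61.2%). Both PY79 shares lay above both OP50 shares in 166 (7.74%). The lower shares on PY79 were thus common to many genes and not particular to glycolysis.

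**Figure D4:**
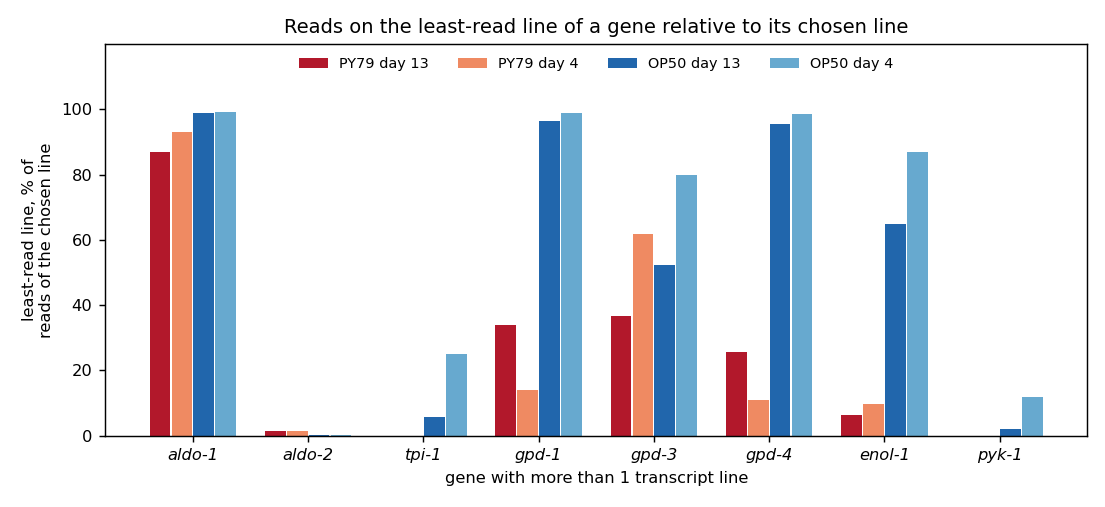
Reads of the least-read transcript line as a percent of the reads of the chosen line, for the 8 glycolysis genes with more than 1 line, with 1 bar for each library and no error bars. For gpd-1, gpd-4 and enol-1 both PY79 bars lie at or below 34.0% and both OP50 bars at or above 64.8%.

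For some genes the least-read line and the excess of the chosen line over it stood on opposite sides of 1 between the diets. This excess is the difference of 2 counts, and it is a set of reads, with the intervals given, only if the chosen line holds every read of the least-read line, which was not tested. For gpd-1 the least-read line held 51 reads in the PY79 day 13 library and 20 in the PY79 day 4 library, against 1859 and 2655 in the OP50 libraries of those days, and was 10.1-fold (7.61 to 13.6) lower on PY79 at day 13 and 27.1-fold (17.5 to 44.5) lower at day 4. The excess of the chosen line was 99 at day 13 and 123 at day 4 on PY79, against 71 at day 13 and 31 at day 4 on OP50, and was 5.06-fold (3.69 to 6.96) higher on PY79 at day 13 and 19.4-fold (13.0 to 29.8) higher at day 4. The least-read line of gpd-1 was thus lower on PY79 while the excess of its chosen line was higher.

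For gpd-4 the least-read line held 12 and 6 reads on PY79, against 776 and 1279 on OP50, at day 13 and day 4, while the excess was 35 and 48 reads on PY79, against 36 and 19 on OP50. For enol-1 the least-read line held 6 and 7 reads on PY79, against 219 and 704 on OP50, at day 13 and day 4, while the excess was 2.71-fold (2.04 to 3.60) higher on PY79 at day 13 and 2.95-fold (2.13 to 4.07) higher at day 4. Both genes repeat the pattern of gpd-1. Over the 8 genes, the excess was higher on PY79 with an interval above 1 in 6 at day 13 and 6 at day 4, beside 51% and 66.9% of 2086 genes with several lines. The least-read line was lower with an interval below 1 in 4 at each day (aldo-1, gpd-1, gpd-4 and enol-1), beside 35.2% of 2144 genes at day 13 and 44.7% at day 4, and higher in 2 (aldo-2 and gpd-3). Its 0 reads on PY79 for tpi-1 and pyk-1 did not resolve a direction at this depth. No source used here gives where on the transcripts these lines differ, or how a read that fits several lines was counted.

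The other genes of carbohydrate metabolism were taken from fixed lists. Beside the counts of each list, 14.8% of all genes tested rose and 17% fell on PY79, and 3.52% rose and 4.05% fell with age. The list calls use TMM scaling. Over all genes 1538 fell and 1334 rose on PY79 with TMM, against 484 and 1401 with total-read scaling. With age 366 fell and 318 rose with TMM, against 1 and 0 with total-read scaling. Of the other glycolysis steps 7 of 8 listed genes were tested (pfk-1.2 was not analysed here), with 0 called with age, and 3 rose and 0 fell on PY79. They were the hexokinase gene hxk-1 (68 and 87 reads on PY79, against 77 and 86 on OP50, at day 13 and day 4, log2 change 1.99, edgeR Benjamini-Hochberg adjusted p = 0.00505), the glucose phosphate isomerase gene gpi-1 (64 and 68 reads on PY79, against 63 and 48 on OP50, 2.33, adjusted p = 0.00114) and the phosphoglycerate mutase gene ipgm-1 (36 and 33 reads on PY79, against 28 and 33 on OP50, 2.25, adjusted p = 0.00161). As for tpi-1, their reads were about as many in the shallow PY79 libraries as in the deep OP50 libraries. The median log2 ratio of these 7 genes was 1.66 at day 13 and 1.95 at day 4.

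Among 8 genes of the pyruvate and glycerol branches, the glycerol-3-phosphate dehydrogenase gene gpdh-1 fell with age (2 and 12 reads on PY79, 6 and 63 on OP50, at day 13 and day 4, log2 change -2.92, edgeR Benjamini-Hochberg adjusted p = 0.00555). On PY79 1 of the 8 rose, the pyruvate dehydrogenase subunit gene pdha-1 (log2 change 2.26, edgeR adjusted p = 0.00211), and 1 fell, the dihydrolipoamide dehydrogenase gene dld-1 (-1.58, adjusted p = 0.0336). With TMM scaling, 2 genes of the same enzyme complex were thus called in opposite directions with diet. Of 4 genes specific to gluconeogenesis 0 were called with age, 0 rose on PY79 and 2 fell, namely the phosphoenolpyruvate carboxykinase gene pck-2 (-2.20, edgeR adjusted p = 0.00230) and the pyruvate carboxylase gene pyc-1 (-2.61, adjusted p = 0.00385).

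Of 10 tested genes of glycogen and trehalose metabolism 0 were called with age, and on PY79 1 rose, the trehalase gene tre-2 (log2 change 3.18, edgeR Benjamini-Hochberg adjusted p = 2.49e-05), and 3 fell. Those that fell were the glycogen debranching gene agl-1 (-2.97, edgeR adjusted p = 3.59e-04), the trehalose phosphate synthase gene tps-2 (-2.68, adjusted p = 7.01e-04) and the trehalase gene tre-4 (-3.98, adjusted p = 0.0125). Of 5 genes of the pentose phosphate pathway 0 were called with age, 1 rose on PY79, the ribose-5-phosphate isomerase gene rpia-1 (2.72, edgeR adjusted p = 2.41e-04), and 2 fell, the phosphogluconate dehydrogenase gene T25B9.9 (-2.04, adjusted p = 0.00294) and the transketolase gene tkt-1 (-1.89, adjusted p = 0.00479). As among the 10 glycolysis genes, the pentose phosphate gene that rose had fewer reads on OP50 than those that fell. At day 13 and day 4 rpia-1 had 37 and 19, against 1484 and 2661 for T25B9.9 and 2148 and 3824 for tkt-1. The glycogen and trehalose genes did not all follow this, since tre-4 fell with 8 and 72 reads on OP50 and tre-2 rose with 16 and 14.

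Some tissue markers differed between the diets too. Over all genes tested, 17% fell and 14.8% rose on PY79 in the edgeR fit. Of 12 markers of body wall muscle 2 fell on PY79 in the edgeR fit (pat-10 and tnt-2) and 0 rose, of 6 intestine markers 1 fell (mtl-2), of 10 germline and oocyte markers 1 fell (glh-1), of 4 tested epidermis markers 1 fell (col-119), of 4 tested neuron markers 1 fell (egl-21), and of 4 pharynx markers 1 rose (tnc-2). The summed intestine level was 983 CPM at day 13 and 1462 CPM at day 4 on PY79, against 5368 CPM at day 13 and 3362 CPM at day 4 on OP50, almost all of it from the metallothionein gene mtl-2. The summed germline and oocyte level was 769 CPM at day 13 and 938 CPM at day 4 on PY79, against 1683 CPM at day 13 and 2357 CPM at day 4 on OP50. The germline sum is carried by its most abundant genes, and by single genes 6 of the 10 were higher on PY79 at both days and 3 lower at both, with median log2 ratios of 0.76 at day 13 and 0.45 at day 4. The part of tissue composition in the diet ratios was not tested.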

How the data were processed

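The authors deposited raw read counts per transcript line for 4 whole-worm poly(A) libraries made by 3' end-enriched RNA sequencing, 24775 lines with no normalization. The submitters' processing notes name Bowtie 0.12.7. Not given in the sources used here are the build, the annotation, whether strand was used and what tool counted the reads, and no coordinates or sequences are printed. There were 2 lines naming no gene, which held 0 reads. Of 17096 genes 4347 had several lines, and the line with most reads was used. Symbols came from RefSeq (16233 genes matched) and overlaps from Ensembl.

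Genes that reached 10 reads in any library were tested with edgeR 4.0.16 in R 4.3.3 (TMM, additive model of diet and day, glmQLFit and glmQLFTest, Benjamini-Hochberg over 9032 genes, adjusted p under 0.05), after the script was tested on simulated data. Log2 ratios of 2 libraries used a prior count of 1, and folds used scaled reads without it. Alternatives were total reads, DESeq2 1.42.0 size factors and test, scaling without the top 3% of genes, summed lines, other filters, a prior count of 5 and a 1.5-fold rule. Genes were named by list, being those that passed a test. The members and lists were chosen with earlier results of these data known.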

Additional observations from a re-analysis of the deposited data

How the results depend on the processing

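With age, 0 of the 10 genes passed the test under every scaling, filter and tool tried. With total reads, however, 0 of all 9032 genes rose and 1 fell with age, so that setting could not set the 10 genes apart from others. At 2-fold, 1 gene, enol-1, was lower at day 13 on OP50 with total reads, with all lines of a gene summed, with the line with fewest reads, and with a 1.5-fold rule, against 0 with the settings of the report, and 1 gene, gpd-1, was higher at day 13 on PY79 with the line with fewest reads. The number that rose on PY79 was 2, and became 4 without the 3% most highly expressed genes and 1 with no filter, with DESeq2's test or with the line with fewest reads. The number that fell was 4, and became 0 with total reads and 1 without the top 3%. At 2-fold, 3 genes were lower on PY79 at day 13 with total reads or without the top 3%, against 5. At day 4, 4 were higher with either of these, against 2, and 2 were lower without the top 3%, against 5. The alternative of the line with fewest reads was chosen after seeing the data. With it aldo-2 turned to a log2 change of 1.71 on PY79 (edgeR adjusted p = 0.0399) and a day 13 log2 ratio of 1.46, and tpi-1 to a change of -5.05 (edgeR adjusted p = 0.356), with log2 ratios of -1.51 at day 13 and -2.98 at day 4 that rest on 0 reads in the PY79 libraries. For the difference of the age ratios, where scalings were also added after seeing the data, 6 intervals lay above 0 and 0 below with total reads, against 1 and 2, and aldo-2 turned to 0.28. The cause of these changes was not tested. Single genes also crossed the threshold: aldo-2 fell on PY79 with at least 10 reads in every library (-1.25, edgeR adjusted p = 0.0289) and with DESeq2's test (-1.16, DESeq2 adjusted p = 0.0487), and enol-1 fell with lines summed (-2.13, edgeR adjusted p = 0.00404). The summed lines of enol-1 may hold the same reads more than once. Without the top 3%, gpd-2 (log2 change 2.02) and pyk-1 (1.43) also passed as higher on PY79. The rise of gpd-3 did not pass with no filter (1.44) or with DESeq2's test (1.59).

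No paired analysis was possible because each group has 1 library, and leaving out a library would leave no residual degree of freedom. The PY79 libraries had fewer reads, which makes the age intervals of gpd-2, gpd-3, pyk-1 and gpd-4 wide on that diet. The common dispersion was 0.138 and all genes shared the spread of the trend, whereas with total reads the prior degrees of freedom were 4.83.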

Other observations

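The 2 glycolysis genes that reached 100 reads in each of the libraries, aldo-2 and gpd-1, gave a mean profile over the 4 libraries, and 990 other genes with that depth were ranked by the root mean square distance of their centred log2 CPM from it. The nearest were icl-1, which codes for the glyoxylate cycle enzyme isocitrate lyase and malate synthase in 1 protein (distance 0.04), Y54F10AM.11 (0.06), B0336.13 (0.07), the ribosomal protein gene rpl-41.1 (0.08) and dxbp-1 (0.08). Of these, icl-1 had 29.4 CPM at day 13 and 31.1 CPM at day 4 on PY79, against 85.4 CPM at day 13 and 77.2 CPM at day 4 on OP50. With 4 points a short distance is a description of these libraries only.

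The age ratios of the least-read line and of the excess of the chosen line over it differed in direction on OP50 for some genes. The intervals of the excess hold only if the chosen line has every read of the least-read line, which was not tested. The least-read line of gpd-1 was 1.15-fold (1.08 to 1.22) lower at day 13, while the excess was 2.85-fold (1.85 to 4.50) higher. For gpd-4 the least-read line was 1.32-fold (1.21 to 1.45) lower at day 13 and the excess 2.36-fold (1.32 to 4.36) higher, and for enol-1 the least-read line was 2.58-fold (2.21 to 3.02) lower and the excess 1.40-fold (1.07 to 1.83) higher. On PY79 the least-read line of gpd-1 was 2.35-fold (1.38 to 4.17) higher at day 13 and the excess 1.35-fold (1.02 to 1.77) lower, the opposite of OP50.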
